A study of Homo sapiens with 42 samples.

Results

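Chemoattractant receptors were followed across HL-60 cells treated with all-trans retinoic acid (ATRA), EZH2 inhibitors or EZH2 knockdown. The genes were a named list of 10: CCR1, CCR7, CXCR2, CXCR4, FPR1, FPR2, FPR3, C5AR1, C3AR1 and LTB4R. Each was read from probe sets assigned to exactly 1 gene symbol, taking the brightest over all arrays, which gave 9 of the 10 genes out of 18417 genes in all. LTB4R was not analysed here. HL-60 is a human line from an acute myeloid leukemia, with MYC amplified and blasts like promyelocytes, and all 14 groups of 3 arrays were made from it. The inhibitor experiment (18 arrays) held untreated cells, cells with 10 µM GSK343, an EZH2 inhibitor, and cells with 2.5 µM HKMTI-1-005, an inhibitor of EZH2 and of the H3K9 methyltransferases EHMT1 and EHMT2. Each was kept without or with 0.1 µM ATRA for 3 days. The knockdown experiment (24 arrays) held wild-type cells (WT), cells with a non-targeting shRNA (Scr) and cells with either of 2 EZH2 shRNAs (shEZH2#1 and shEZH2#2), again without or with ATRA. The hairpins were carried by lentivirus and the cells were selected as puromycin-resistant pools, so that WT cells differed from them in transduction and selection too. The study describes the arrays of a group as biological triplicates. The labels do not say from which cultures they came, and the p-values measure the spread between these arrays.

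Chemoattractant receptors are membrane-spanning receptors that couple to inhibitory G proteins and steer leukocytes along gradients of chemokines, complement fragments, formylated bacterial peptides and lipids. Signals run through Gβγ to phosphoinositide 3-kinase gamma and phospholipase C beta, and are ended by receptor kinases, arrestins and RGS proteins. In the neutrophil lineage, CXCR4 holds immature cells in the bone marrow through its ligand CXCL12, whereas CXCR2, which binds CXCL8, and the formyl peptide receptors mark later stages. ATRA is a ligand of the retinoic acid receptors and drives HL-60 cells toward granulocyte-like cells.

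The promoter stretches of the 3 receptors with the widest differences between groups are shown because these genes moved with ATRA or knockdown. Each holds the 250 bases before the RefSeq transcription start, written 5′ to 3′ in the direction of the gene, from the GRCh38.p14 table. The CCR1 stretch lies at chr3:46208314-46208563 on the minus strand, that of CXCR2 at chr2:218125778-218126027 on the plus strand and that of C3AR1 at chr12:8066360-8066609 on the minus strand. Capitals mark matches on either strand to AGGTCA or AGTTCA, half-sites of retinoid receptors, to AGGAAGT, a core bound by the myeloid factor PU.1, or to TTGCNNAA, a C/EBP core.
CCR1: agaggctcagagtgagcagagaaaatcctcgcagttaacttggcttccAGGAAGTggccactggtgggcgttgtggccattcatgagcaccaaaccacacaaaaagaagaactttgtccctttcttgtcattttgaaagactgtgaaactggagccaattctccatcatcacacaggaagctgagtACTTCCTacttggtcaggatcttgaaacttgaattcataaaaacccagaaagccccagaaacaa
CXCR2: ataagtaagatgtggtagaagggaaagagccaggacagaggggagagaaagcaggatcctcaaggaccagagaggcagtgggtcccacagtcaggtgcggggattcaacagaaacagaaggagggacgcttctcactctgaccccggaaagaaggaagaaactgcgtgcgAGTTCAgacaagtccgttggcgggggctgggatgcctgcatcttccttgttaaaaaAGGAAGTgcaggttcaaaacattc
C3AR1: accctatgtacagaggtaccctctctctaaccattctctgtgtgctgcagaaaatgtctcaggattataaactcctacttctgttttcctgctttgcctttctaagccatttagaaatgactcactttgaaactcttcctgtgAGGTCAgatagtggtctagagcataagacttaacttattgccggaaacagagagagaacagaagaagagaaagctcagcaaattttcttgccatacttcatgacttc
CCR1 held 2 matches to AGGAAGT, starting 202 and 64 bases upstream, the nearer one on the opposite strand. CXCR2 held 1 match to AGTTCA, 80 bases upstream, and 1 to AGGAAGT, 24 bases upstream. C3AR1 held 1 match to AGGTCA, 107 bases upstream. TTGCNNAA was found in none of the 3 stretches. Over 35116 stretches of this length, 12.1% held AGGTCA, 8.80% AGTTCA, 7.01% AGGAAGT and 9.05% TTGCNNAA. A match is a run of letters and was not tested for binding. In the same reference, FPR1, FPR2 and FPR3 are neighbors on chromosome 19, C5AR1 lies next to C5AR2, CXCR2 next to CXCR1, and CCR1 next to CCR3.

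The labeled cell type was matched by high MPO and low lymphoid markers (means of 4.77 to 4.92 in all groups). Of 9 measured monocyte and macrophage markers, CD14, CSF1R and CD163 had group means of 4.07 to 5.02. CD4 (mean 10.19) and CD68 of that list lay in the top 40% of genes. CSF1R was nevertheless called higher with ATRA in shEZH2#1 cells without the expression filter (0.62, adjusted p = 0.0184). CD68 of the same list, with a mean of 9.10, was called higher with ATRA in all 7 backgrounds, though not in Scr cells without the 6 arrays described next (adjusted p = 0.367). EZH2 mRNA was lower with the hairpins than with Scr, by a log2 change of -1.08 without ATRA (adjusted p = 1.72e-05) and -0.78 with ATRA (adjusted p = 0.000652). Against WT its changes were -0.74 and -0.90. In the knockdown experiment, 6 arrays had a higher median over all probe sets (5.47 to 5.56) than the other knockdown arrays (5.31 to 5.44): Scr replicates 1 and 2, Scr+ATRA replicate 3, WT+ATRA replicate 3, shEZH2#1 replicate 1 and shEZH2#2 replicate 2. Without them, Scr keeps 1 array, Scr+ATRA, WT+ATRA, shEZH2#1 and shEZH2#2 keep 2 each, and a lone array is assumed to vary like the other groups. Knockdown results whose call is lost without them are named with that value. For the mean of both hairpins, EZH2 changed without them by -1.14 against Scr, which keeps 1 array. With ATRA it was -0.77 (adjusted p = 0.00547) and stayed called. shEZH2#1 alone had -1.04, with its call lost, and -0.94 with ATRA (adjusted p = 0.00179). shEZH2#2 alone had -1.23 and, with ATRA, -0.59, with that call lost (adjusted p = 0.0801). Against WT, calls were lost for shEZH2#1 without ATRA (adjusted p = 0.0657) and shEZH2#2 with ATRA (adjusted p = 0.0722).

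A level is the log2 value of the array, and a change is a difference of log2 group means from limma, with a standard error and a p-value adjusted over 18417 genes. Calls needed a fold of 1.3 or more, an adjusted p no higher than 0.05 and a mean in the top 40% of genes (7367 genes, lowest mean 6.88). The filter used the mean of all 42 arrays. It kept CCR1 (mean 8.03), CXCR4 (9.16) and C3AR1 (9.37), which is 3 of 9. CXCR2 (6.09) and C5AR1 (5.91) lay near the middle of all genes, at percentiles 53.2 and 51.8 of the mean. FPR1 (4.74), CCR7 (4.62), FPR3 (4.21) and FPR2 (4.08) lay lower, FPR2 at percentile 1.79. Calls were therefore also made without the filter, as said at each. Group means spanned 2.80 for C3AR1, 2.68 for CXCR2 and 2.27 for CCR1, but 0.96 for CXCR4, 0.77 for C5AR1 and 0.16 to 0.45 for FPR1, FPR2, FPR3 and CCR7. Levels of different genes come from different probes and were not ranked against each other. Where arrays are said to be separate or not to overlap, this describes their values and is no test. The share of all genes that separate in the same comparison is not given beside it. A separation can therefore not be read as particular to a receptor.

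**Figure D1:**
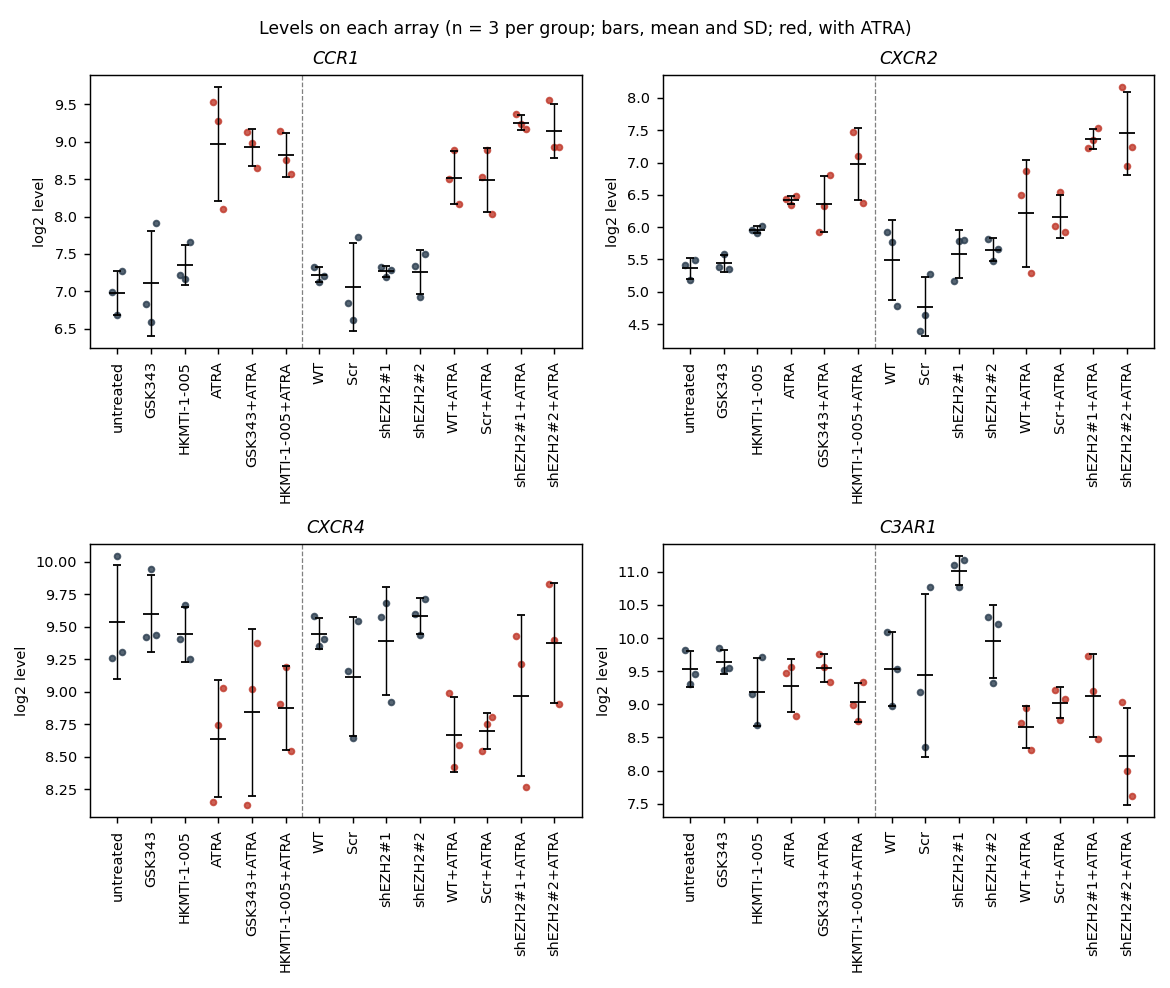
Log2 level of CCR1, CXCR2, CXCR4 and C3AR1 (each panel with its own axis) on each of the 42 arrays by group; black marks are the mean and SD of 3 arrays, red points had ATRA and the dashed line parts the inhibitor from the knockdown experiment. CCR1 lay between 8.03 and 9.55 on all 21 arrays with ATRA and between 6.60 and 7.91 on all 21 without it.

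CCR1, the receptor for CCL3 and CCL5, was the one receptor called higher with ATRA in every background. Its levels on untreated arrays were 6.99, 6.69 and 7.27, and with ATRA 9.53, 9.27 and 8.10. In GSK343 cells they were 6.83, 6.60 and 7.91 without and 9.13, 8.99 and 8.65 with ATRA. In HKMTI-1-005 cells they were 7.23, 7.17 and 7.65 without and 9.14, 8.76 and 8.56 with ATRA. Within each background every array with ATRA exceeded every array without. The changes were 1.99 (standard error 0.31, adjusted p = 6.58e-05, limma), 1.81 (adjusted p = 0.000292) and 1.47 (adjusted p = 0.00381). WT cells had 7.33, 7.13 and 7.21 without and 8.50, 8.89 and 8.17 with ATRA, a change of 1.30 (adjusted p = 0.023). Scr cells had 6.85, 6.62 and 7.73 without and 8.53, 8.88 and 8.03 with ATRA, a change of 1.42 (adjusted p = 0.00741). The groups again did not overlap, but both calls were fragile. The WT call was lost on leaving out any of 5 of its 6 arrays, all but WT+ATRA replicate 3 (adjusted p 0.0553 to 0.156). The Scr call was lost without Scr+ATRA replicate 2, Scr replicate 1 or Scr replicate 2 (0.0633 to 0.0939), and without the 6 arrays of high median (change 0.98, adjusted p = 0.542). shEZH2#1 cells had 7.33, 7.19 and 7.28 without and 9.36, 9.24 and 9.16 with ATRA, a change of 1.99 (adjusted p = 5.54e-05). shEZH2#2 cells had 7.34, 6.93 and 7.50 without and 9.55, 8.94 and 8.93 with ATRA, a change of 1.88 (adjusted p = 0.00013). In the order of the 14 group means, the 7 groups with ATRA came first, and the break between Scr+ATRA, the lowest of them, and the next group was the only place where neighboring groups did not overlap. These are bulk RNA values, in which more cells with the transcript and more transcript per cell cannot be told apart.

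CXCR2, the CXCL8 receptor, lies below the expression filter and its calls are without it. Scr arrays read 4.39, 4.65 and 5.27 without and 6.02, 6.55 and 5.92 with ATRA. shEZH2#1 arrays read 5.16, 5.79 and 5.81 without and 7.23, 7.35 and 7.53 with ATRA. shEZH2#2 arrays read 5.82, 5.47 and 5.66 without and 8.17, 6.94 and 7.24 with ATRA. No array with ATRA overlapped its controls in these 3 backgrounds, and the changes were 1.39 (adjusted p = 0.0143), 1.78 (adjusted p = 0.000511) and 1.80 (adjusted p = 5e-04). The Scr call was lost without Scr+ATRA replicate 2, Scr replicate 1 or Scr replicate 2 (adjusted p 0.0839 to 0.124), without the 6 arrays of high median (change 1.01, adjusted p = 0.485) and in a fit of the knockdown arrays alone (adjusted p = 0.0829). In untreated cells CXCR2 went from 5.42, 5.18 and 5.50 to 6.43, 6.35 and 6.47, a change of 1.05 (standard error 0.33, adjusted p = 0.0418). The groups did not overlap, yet leaving out any of the 6 arrays moved the adjusted p to between 0.0659 and 0.166, and a replicate block moved it to 0.0576. In GSK343 cells the levels were 5.38, 5.58 and 5.35 without and 5.93, 6.33 and 6.80 with ATRA, and in HKMTI-1-005 cells 5.96, 5.91 and 6.02 without and 7.47, 7.09 and 6.38 with ATRA. The arrays were separate in both, but the changes of 0.92 (adjusted p = 0.0963) and 1.02 (adjusted p = 0.101) did not pass. WT cells were the one background where CXCR2 arrays overlapped, with 5.92, 5.78 and 4.78 without and 6.49, 6.87 and 5.28 with ATRA (change 0.72, adjusted p = 0.457).

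C3AR1, the receptor for the complement fragment C3a, moved the other way and was called in the EZH2 knockdown cells. shEZH2#1 arrays read 11.11, 10.77 and 11.17 without and 9.72, 9.19 and 8.47 with ATRA, a change of -1.89 (standard error 0.41, adjusted p = 0.00305). shEZH2#2 arrays read 10.32, 9.32 and 10.22 without and 9.03, 8.00 and 7.61 with ATRA, a change of -1.74 (adjusted p = 0.00767). Every array with ATRA lay below its controls in both. The shEZH2#2 call was lost without shEZH2#2+ATRA replicate 3 (change -1.44, adjusted p = 0.0584) and in a fit of the knockdown arrays alone (adjusted p = 0.0508). WT cells had 10.09, 8.98 and 9.53 without and 8.71, 8.94 and 8.31 with ATRA, separate arrays but a change of -0.88 with an adjusted p of 0.467. Scr cells had 9.18, 8.36 and 10.77 without and 9.22, 8.77 and 9.08 with ATRA, a change of -0.41 (adjusted p = 0.709), and the Scr arrays without ATRA were the most widely spread of any group (SD 1.23). In the inhibitor experiment the changes were -0.25 in untreated, -0.08 in GSK343 and -0.16 in HKMTI-1-005 cells, with overlapping arrays throughout.

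CXCR4, the receptor for CXCL12, was lower on all arrays with ATRA than without, within each background of the inhibitor experiment and in WT cells. It was not called. Untreated arrays read 9.26, 10.04 and 9.30, and with ATRA 8.15, 8.74 and 9.03, a change of -0.90 (standard error 0.30, adjusted p = 0.0637). This change was called with a replicate block (adjusted p = 0.0374), with the array median as a covariate (-0.91, adjusted p = 0.0355) and without ATRA replicate 3 (-1.09, adjusted p = 0.0367). WT arrays read 9.58, 9.36 and 9.41 without and 8.99, 8.42 and 8.59 with ATRA (change -0.78, adjusted p = 0.316). Arrays with and without ATRA did not overlap in these 2 backgrounds, nor with GSK343 (-0.76, adjusted p = 0.148) or HKMTI-1-005 (-0.56, adjusted p = 0.51). They did overlap in Scr (-0.42), shEZH2#1 (-0.42) and shEZH2#2 cells (-0.20, interval -0.82 to 0.41). C5AR1, the receptor for C5a, read 5.80, 5.37 and 5.87 on untreated arrays and 6.83, 6.18 and 5.91 with ATRA (change 0.63, adjusted p = 0.158). In shEZH2#1 cells it read 6.15, 6.15 and 6.03 without and 5.49, 5.56 and 5.57 with ATRA (change -0.57, adjusted p = 0.268). The arrays were separate in both backgrounds, in opposite directions, and neither change was called.

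The formyl peptide receptors, which sense bacterial and mitochondrial N-formyl peptides, and CCR7, the receptor for CCL19 and CCL21 on dendritic cells and lymphocytes, stayed low. FPR1 ran from 4.44 to 4.83 on the 21 arrays without ATRA and from 4.52 to 5.13 on the 21 with it. Its largest ATRA change was 0.33 in untreated cells (4.50, 4.75 and 4.64 against 5.13, 5.02 and 4.72, overlapping, adjusted p = 0.074). FPR2 passed the adjusted p with GSK343, where it read 4.02, 3.92 and 3.83 without and 4.18, 4.36 and 4.19 with ATRA. The change of 0.32 (adjusted p = 0.00421) is below the 1.3-fold limit, so that it was not called. FPR3 lay between 4.05 and 4.41 and CCR7 between 4.34 and 5.04 on all arrays, with no difference that passed.

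**Figure D2:**
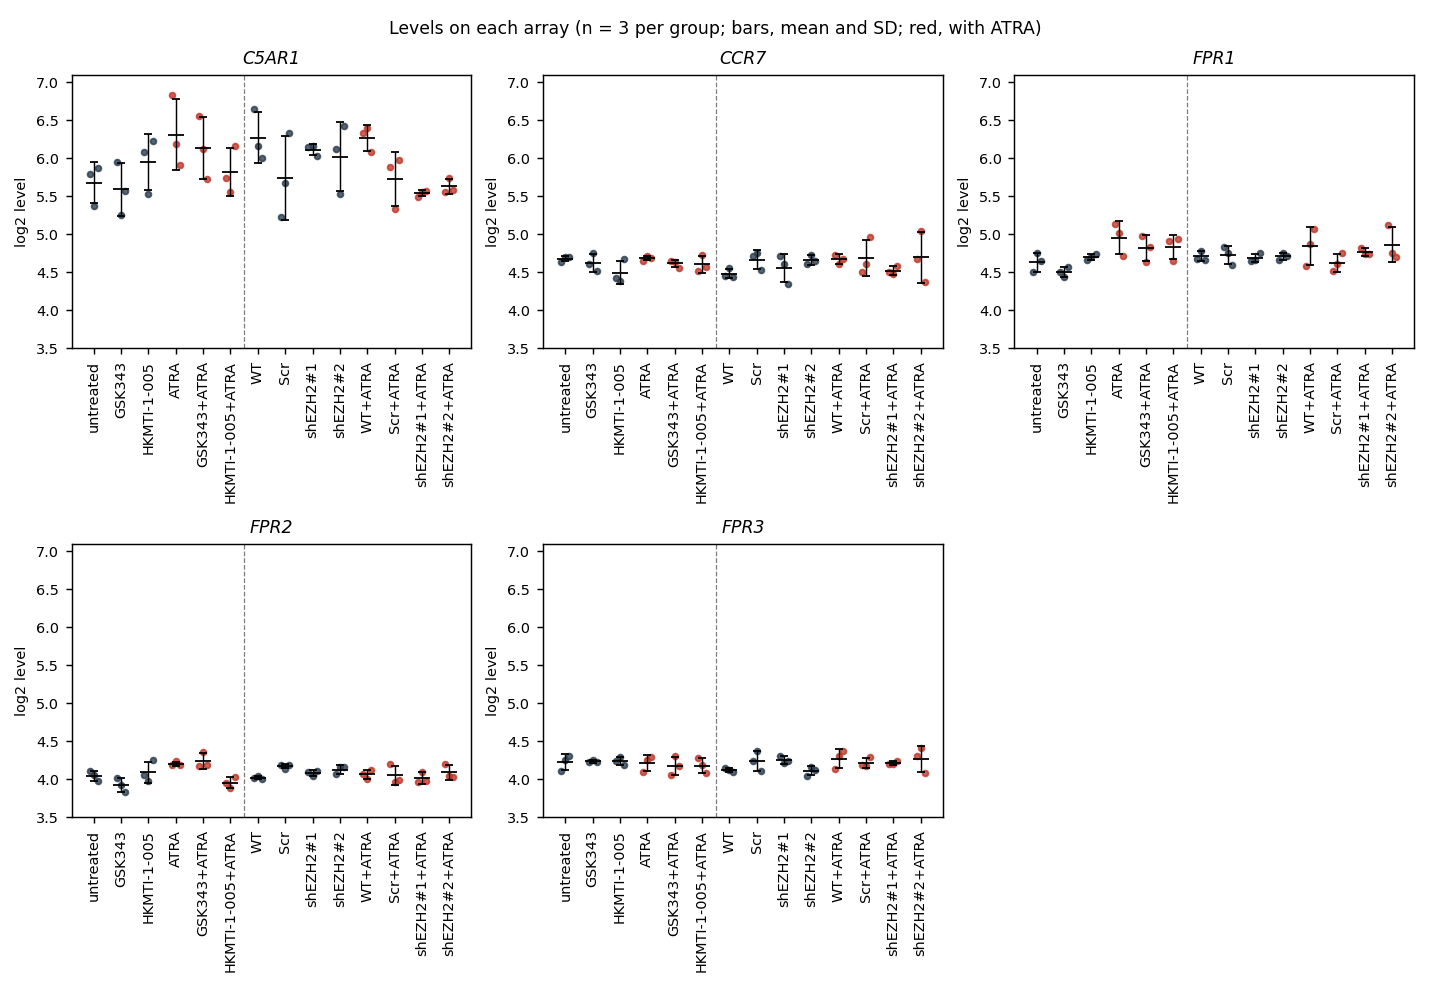
Log2 level of C5AR1, CCR7, FPR1, FPR2 and FPR3 on each of the 42 arrays by group, on 1 shared axis; black marks are the mean and SD of 3 arrays and red points had ATRA. The 3 formyl peptide receptors and CCR7 stayed between 3.83 and 5.13 in all groups, while C5AR1 ran from 5.23 to 6.83.

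The counts of receptors called with ATRA stand beside the share of all genes called in the same comparison. In untreated cells 1 of the 3 genes above the filter was called (13.1% of 7367 genes) and 2 of all 9 without the filter (7.29% of 18417 genes). The counts were 1 of 3 (10.4%) and 1 of 9 (6.07%) with GSK343, and 1 of 3 (4.05%) and 1 of 9 (2.71%) with HKMTI-1-005. They were 1 of 3 (2.13%) and 1 of 9 (1.32%) in WT cells, and 1 of 3 (4.98%) and 2 of 9 (2.57%) in Scr cells. They were 2 of 3 (8.65%) and 3 of 9 (4.91%) in shEZH2#1 cells, and 2 of 3 (8.36%) and 3 of 9 (4.66%) in shEZH2#2 cells. The shared call in all 7 was CCR1. The median change of the 9 genes was 0.16 in untreated cells, 0.31 with GSK343, -0.06 with HKMTI-1-005, 0.13 in WT, -0.02 in Scr, -0.04 in shEZH2#1 and 0.03 in shEZH2#2 cells, while that of all genes lay between -0.02 and 0.01. A t-test, which takes the spread from the compared arrays alone, called 0 receptors in all 7 backgrounds after Benjamini-Hochberg adjustment. The methods name a t-test for their experiments in general, and for the arrays a false discovery rate across all conditions. With so few genes these shares describe the list and single out nothing about it.

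**Figure D3:**
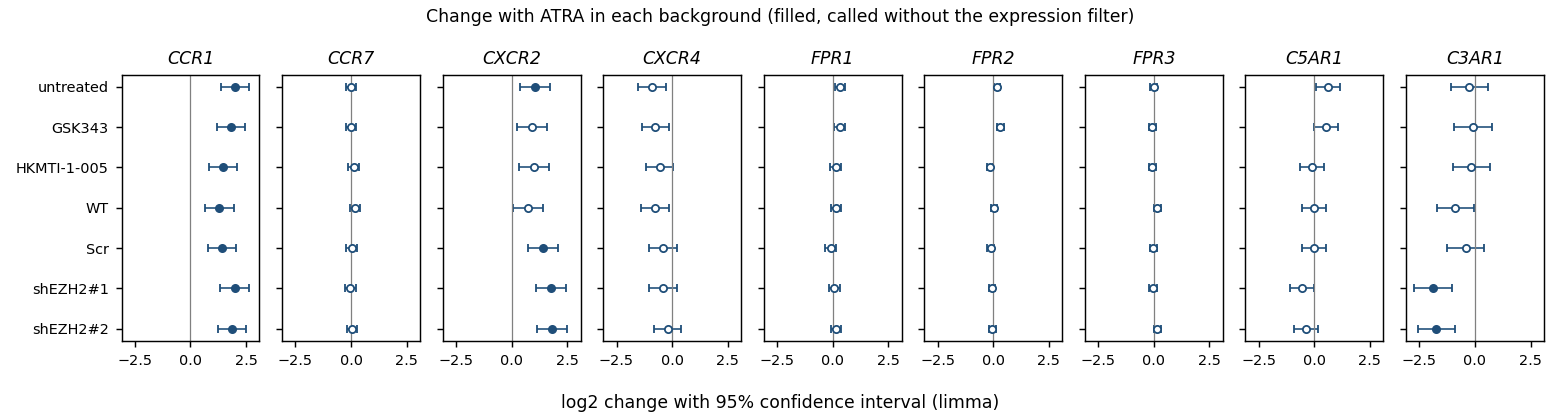
Log2 change with ATRA in 7 backgrounds (rows) for each of the 9 receptors (columns); points are limma estimates, bars 95% confidence intervals, and filled points were called without the expression filter. CCR1 is filled in all 7 rows, CXCR2 in untreated, Scr, shEZH2#1 and shEZH2#2 cells, and C3AR1 below 0 in both knockdown rows.

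The inhibitors were compared with untreated cells, at doses that differ between them, so that their values stand side by side. Both comparisons share the untreated arrays. Without ATRA neither inhibitor moved a receptor past the test. GSK343 had 0 of 3 and 0 of 9 called (0.0136% and 0.0217% of all genes), and HKMTI-1-005 0 of 3 and 0 of 9 (0.217% and 0.223%). With ATRA the counts were again 0 of 3 and 0 of 9 for GSK343 (0.0136% and 0.0163%) and for HKMTI-1-005 (0.76% and 0.619%). At an unadjusted p below 0.05, limma left only FPR2 with HKMTI-1-005 and ATRA, at 3.95, 3.89 and 4.03 against 4.19, 4.24 and 4.19 with ATRA alone (change -0.25, adjusted p = 0.112). CXCR2 arrays with HKMTI-1-005 (5.96, 5.91 and 6.02) all lay above untreated arrays (5.42, 5.18 and 5.50). That change was 0.59 (interval -0.08 to 1.27, adjusted p = 1), beside 0.07 for GSK343 (interval -0.60 to 0.75). With ATRA the CXCR2 changes were 0.56 (interval -0.11 to 1.23) for HKMTI-1-005 and -0.06 (interval -0.74 to 0.61) for GSK343. CCR1 changed by 0.37 with HKMTI-1-005 (interval -0.27 to 1.00) and by 0.13 with GSK343 (interval -0.51 to 0.77). For GSK343, neither the CXCR2 nor the CCR1 interval without ATRA excludes a change of 1.3-fold in either direction.

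EZH2 knockdown, the mean of both hairpins, was compared with Scr and with WT. Both comparisons share the hairpin arrays. With ATRA, CXCR2 was higher than in either control. The 6 hairpin arrays, listed above, ran from 6.94 to 8.17, while Scr+ATRA arrays read 6.02, 6.55 and 5.92 and WT+ATRA arrays 6.49, 6.87 and 5.28. No hairpin array overlapped a control array. The change was 1.25 against Scr (standard error 0.29, adjusted p = 0.0105) and 1.19 against WT (adjusted p = 0.0179), both without the expression filter. The call against Scr was lost without Scr+ATRA replicate 1 (adjusted p = 0.0586) or replicate 3 (adjusted p = 0.0992), and in a fit of the knockdown arrays alone (0.0629). The call against WT was lost without WT+ATRA replicate 3, the lowest array (change 0.73, adjusted p = 0.374), without shEZH2#2+ATRA replicate 1 (adjusted p = 0.0676), without the 6 arrays of high median (0.196), with either hairpin alone (0.0577 and 0.0711) and in a fit of the knockdown arrays alone (0.0969). Against Scr, each hairpin alone was called, at 1.20 for shEZH2#1 (adjusted p = 0.0358) and 1.29 for shEZH2#2 (adjusted p = 0.0428). Without the 6 arrays of high median the mean of both stayed called (1.13, adjusted p = 0.0245), and each hairpin alone did not (adjusted p = 0.0558 for both). CCR1 was also separate from both controls with ATRA, with changes of 0.71 (adjusted p = 0.145) and 0.68 (adjusted p = 0.24) that did not pass. C5AR1 was separate from WT with ATRA, at -0.68 (adjusted p = 0.129), but not from Scr (-0.14).

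Without ATRA, C3AR1 had its highest group mean in shEZH2#1 cells. The shEZH2#1 levels of 11.11, 10.77 and 11.17 lay above all WT arrays (10.09, 8.98 and 9.53) and above the Scr arrays (9.18, 8.36 and 10.77) except that Scr replicate 3 met the lowest of them. The change of shEZH2#1 against Scr was 1.58 (standard error 0.41, adjusted p = 0.027), and against WT 1.48 (adjusted p = 0.0959). Without the 6 arrays of high median, which leaves Scr replicate 3 as the only Scr array, the change against Scr was 0.20 (adjusted p = 0.998). shEZH2#2 changed by 0.51 against Scr (adjusted p = 0.576) and by 0.42 against WT (adjusted p = 0.763), with overlapping arrays. With the expression filter, 1 of 3 receptors was called for shEZH2#1 against Scr (6.07% of genes) and 0 of 3 for shEZH2#2 (2.46%). The mean of both hairpins, at 1.05 against Scr (adjusted p = 0.0871), did not pass. The hairpins differed from each other in C3AR1 by 1.06 (unadjusted p = 0.0143, adjusted p = 0.353) without and 0.91 (adjusted p = 0.652) with ATRA, so that the difference itself was not called. In those 2 contrasts, chosen after the values were seen, 0 of 9 receptors were called (0.396% and 0.391% of genes).

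Eosinophil and basophil markers stood apart in the same cells. The mean level of the 6 measured markers was 5.55 to 6.16 on shEZH2#1 arrays and 5.25 to 6.21 with ATRA, and 4.38 to 5.05 on every array of the other 12 groups. Of the 6, EPX (6.74 in shEZH2#1 and 3.87 in shEZH2#2), CLC (7.54 and 4.71) and PRG2 (8.02 and 5.65) carried the difference, each called between the hairpins without the filter. SIGLEC8, CPA3 and HDC stayed at 4.65, 4.53 and 4.17 in shEZH2#1. The part of cells with these markers in the C3AR1 level of shEZH2#1 was not tested. In shEZH2#2 the marker mean was 4.54 without and 4.59 with ATRA. In shEZH2#1 it was 5.94 without and 5.71 with ATRA, with overlapping arrays. Of the 6 markers only PRG2 was called with ATRA in these cells, without the filter (-1.30, adjusted p = 0.000274).

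**Figure D4:**
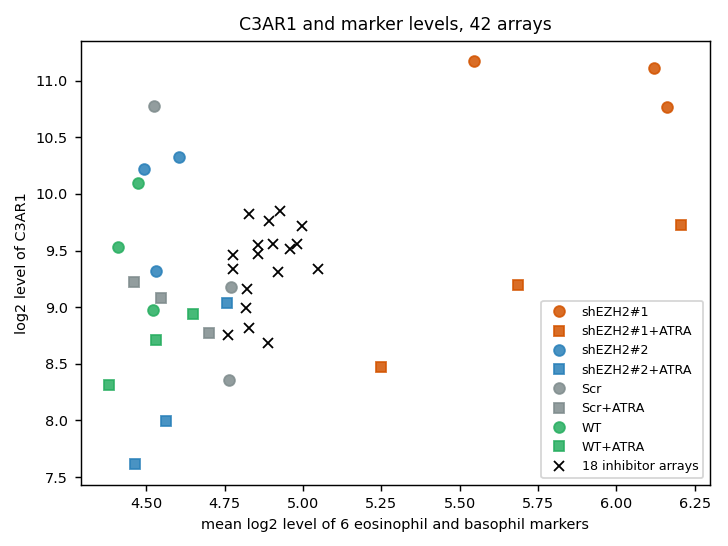
Log2 level of C3AR1 (vertical) against the mean log2 level of 6 eosinophil and basophil markers (horizontal) on 42 arrays; circles are knockdown-experiment arrays without ATRA, squares those with ATRA, crosses the inhibitor experiment. The 6 arrays with shEZH2#1 lie at 5.25 to 6.21 on the marker axis and all others at or below 5.05.

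The counts of receptors called with knockdown stand beside the share of all genes. Against Scr, 0 of 3 and 0 of 9 were called without ATRA (6.12% and 3.25% of genes), and 0 of 3 and 1 of 9 with ATRA (5.38% and 3.02%). Against WT, 0 of 3 and 0 of 9 were called without (0.407% and 0.342%), and 0 of 3 and 1 of 9 with ATRA (3.28% and 1.89%). Between Scr and WT, 0 of 3 and 0 of 9 were called without ATRA (21.6% and 10.9%), and 0 of 3 and 0 of 9 with ATRA (0.991% and 0.548%). With 3 or 9 genes, counts of 0 or 1 say nothing particular about the receptors. In Scr against WT cells without ATRA the CXCR2 change was -0.72 (adjusted p = 0.148) and the C5AR1 change -0.53 (adjusted p = 0.193).

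**Figure D5:**
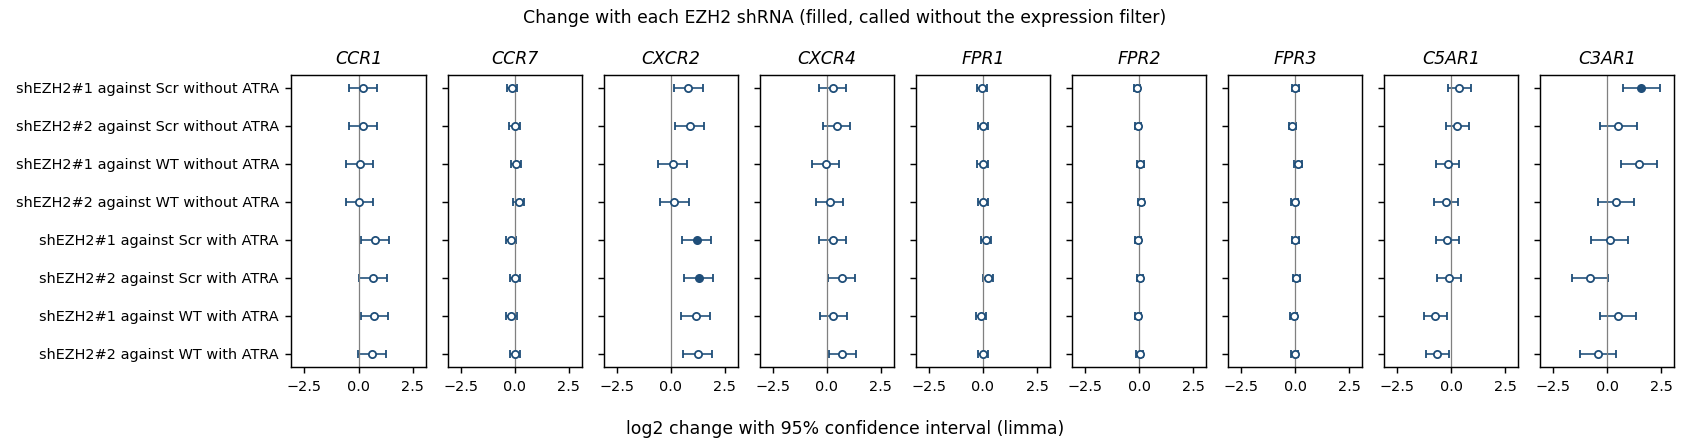
Log2 change of each EZH2 shRNA against Scr or WT (rows) for each of the 9 receptors (columns); points are limma estimates, bars 95% confidence intervals, and filled points were called without the expression filter. CXCR2 is filled for both hairpins against Scr with ATRA, and C3AR1 for shEZH2#1 against Scr without ATRA.

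Whether ATRA acted differently in 2 backgrounds was tested by interaction terms, and none called a receptor. The counts were 0 of 9 for GSK343 and ATRA (0% of genes), 0 of 9 for HKMTI-1-005 and ATRA (0.00543%), 0 of 9 for EZH2 knockdown and ATRA (0.0814%) and 0 of 9 for untreated against WT cells (0.0217%). The largest was C3AR1 in the knockdown term, at -1.40 (interval -2.42 to -0.37, unadjusted p = 0.009, adjusted p = 0.445). It was called without Scr replicate 3, the array at 10.77. FPR2 had an unadjusted p of 0.00607 in the HKMTI-1-005 term (-0.29, adjusted p = 0.932). The larger CXCR2 rise with ATRA in knockdown than in Scr cells was a difference of 0.40 (interval -0.42 to 1.22, adjusted p = 0.852), and that of CCR1 a difference of 0.51 (interval -0.27 to 1.29, adjusted p = 0.783).

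Other genes of the pathway were taken from hand-written lists. Of 19 measured chemoattractant receptors beyond these, CCR2, the receptor for CCL2, was the 1 gene above the filter. Its group means rose with ATRA from 6.69 to 8.28 in WT, 7.61 to 9.32 in Scr, 7.22 to 9.58 in shEZH2#1 and 7.26 to 9.35 in shEZH2#2 cells, and from 7.68 to 9.45 with HKMTI-1-005. The changes were 1.58, 1.70, 2.36, 2.09 and 1.77, each called (in Scr cells not without the 6 arrays of high median, adjusted p = 0.108), whereas the levels of 7.40 and 8.35 in untreated cells and 7.63 and 8.46 with GSK343 gave no call. Without the filter, CXCR5, a lymphocyte homing receptor with a mean of 4.84, was called higher with ATRA in untreated cells (2.25), with GSK343 (2.49), with HKMTI-1-005 (2.30) and in shEZH2#1 cells (1.30). CCRL2 was called higher (0.81) and C5AR2, which also binds C5a, lower (-0.38, adjusted p = 0.00606) in untreated cells, and CX3CR1 higher in both hairpin lines (1.51 and 1.30). With ATRA, CX3CR1 (1.07) and CXCR3 (0.47) were higher in knockdown than in Scr cells, CX3CR1 not called without the 6 arrays of high median (adjusted p = 0.0837). CXCR5 in shEZH2#1 cells was not called without them either (adjusted p = 0.123). These 5 genes were chosen after their values were seen. With ATRA, CCR2 was higher in knockdown than in WT cells (1.19, and 0.98 with an adjusted p of 0.104 without the 6 arrays of high median), but not called against Scr (0.15, adjusted p = 0.858).

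Among 23 measured genes of G protein signaling to migration, 21 lay above the filter, and ATRA raised 6 and lowered 0 of them in untreated cells, where 13.1% of all genes were called. The median change of the 23 was 0.22, beside 0.0046 over all genes. The largest rise was GNG2, a Gγ subunit, from 5.02 to 8.57 (change 3.55, adjusted p = 9.25e-13). It was followed by PIK3R5 (1.56), a regulatory subunit of phosphoinositide 3-kinase gamma, PLCB2 (1.10), a phospholipase C beta, and LYN (1.06), a Src-family kinase. PIK3CG, the catalytic subunit of phosphoinositide 3-kinase gamma, rose by 1.33 in Scr cells, and WAS, an actin regulator, by 0.50 in shEZH2#1 cells (0.37 and not called without the 6 arrays of high median). In the other backgrounds 6 of the 21 rose with GSK343 (10.4% of all genes called), 5 with HKMTI-1-005 (4.05%), 4 in WT (2.13%), 3 in Scr (4.98%), 5 in shEZH2#1 (8.65%) and 6 in shEZH2#2 cells (8.36%), and 0 fell in any. GNG2, PIK3CG and PLCB2 were called in all 7, PLCB2 in Scr cells not without the 6 arrays of high median (0.94, adjusted p = 0.051). With ATRA, knockdown raised GNAI2 (0.48), GNG2 (0.66) and LYN (0.48) against Scr, and GNG2 (0.88) and PLCB2 (0.62) against WT. Scr differed from WT without ATRA in CDC42 (0.39) and ELMO1 (-0.97), both regulators of the cytoskeleton. Without the 6 arrays of high median none of these differences was called (adjusted p 0.0554, 0.146 and 0.0676 against Scr, 0.0815 and 0.0758 against WT, and 0.999 for CDC42 and for ELMO1).

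Of 22 ligands and their enzymes, 9 lay above the filter. In untreated cells ATRA raised C3 (2.05), the precursor of C3a, ALOX5AP (1.18) and ALOX5 (0.76), which make leukotriene precursors, and lowered CCL5 (-0.70), a CCR1 ligand. ALOX5AP was called higher in all 7 backgrounds (in Scr cells not without the 6 arrays of high median, adjusted p = 0.181), and CCL5 lower in untreated, HKMTI-1-005, WT, shEZH2#1 and shEZH2#2 cells. CCL3, another CCR1 ligand, was called lower in shEZH2#2 cells (-1.98). ANXA1, which codes for a ligand of formyl peptide receptors, was higher with knockdown than with Scr, by 1.26 without and 0.95 with ATRA, but by 0.80 without ATRA when the 6 arrays of high median are left out (adjusted p = 0.447). CCL5 was higher with knockdown than with Scr without ATRA (0.71), and not called without those arrays (0.29, adjusted p = 0.896). ANXA1 was lower in Scr than in WT cells without ATRA (-0.84, adjusted p = 0.0362). So were CCL5 (-0.93) and LTA4H (-0.87), the enzyme that makes leukotriene B4. Against WT, knockdown cells were lower in LTA4H without ATRA (-0.66) and higher in C3 (1.54) and ANXA1 (1.01) with ATRA. Without the 6 arrays, the Scr differences from WT in ANXA1, CCL5 and LTA4H (adjusted p 0.836 to 0.999) and the knockdown differences in C3 (0.103) and ANXA1 (0.0632) were not called.

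Of 13 measured genes of receptor desensitization, 10 lay above the filter. ATRA raised GRK6 (0.49), a receptor kinase, and RGS14 (0.52) in untreated cells. RGS16, which shortens G protein signals, was called lower with ATRA in WT (-1.07), shEZH2#1 (-1.71) and shEZH2#2 cells (-1.41). Its group mean went from 8.65 to 8.48 in Scr cells, from 9.16 to 7.44 in shEZH2#1 and from 8.33 to 6.92 in shEZH2#2 cells. The interaction of knockdown and ATRA was called for RGS16 (-1.39, standard error 0.25, adjusted p = 0.0123), but not without the 6 arrays of high median (-1.21, adjusted p = 0.998). RGS1 and RGS2 were higher with knockdown than with Scr, by 1.43 and 1.09 without and 1.35 and 1.06 with ATRA, and RGS16 was lower with ATRA (-1.30 against Scr, -0.97 against WT). RGS1 was also lower in Scr than in WT cells, by a change of -1.70 without and -2.08 with ATRA. Without those 6 arrays the RGS1 and RGS2 differences from Scr without ATRA (adjusted p = 0.642 and 0.693) and the RGS1 difference of Scr from WT without ATRA (adjusted p = 0.437) were not called.

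The genes most like each receptor above the filter were sought over the 14 group means, as a description. CCR1 was closest to CD36, a scavenger receptor (Pearson r 0.992), and to GNG2 (0.99). CXCR4 was closest to SERPINB10 (0.899) and PPP6R1 (0.896), and C3AR1 to STK17B (0.897) and HEBP2 (0.889). ATRA separates the group means of CCR1 and GNG2, and the 14 points share that split.

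Of 8 measured maturation markers of neutrophils, ATRA raised 3 in untreated cells (7.29% of all genes called without the filter), 3 with GSK343 (6.07%) and 2 with HKMTI-1-005 (2.71%). It raised 1 in WT (1.32%), 2 in Scr (2.57%), 4 in shEZH2#1 (4.91%) and 4 in shEZH2#2 cells (4.66%), and lowered none. The 2 Scr calls, ITGB2 and CYBB, were lost without the 6 arrays of high median (changes 0.50 and 0.83), where Scr keeps 1 array. The mean of the 8 went from 7.02 to 7.59 in untreated cells, from 7.03 to 7.44 with GSK343 and from 7.30 to 7.68 with HKMTI-1-005. It went from 7.01 to 7.34 in WT, from 7.01 to 7.40 in Scr, from 7.14 to 7.71 in shEZH2#1 and from 7.25 to 7.88 in shEZH2#2 cells. With knockdown and ATRA, 1 of the 8 was called higher against Scr (3.02% of all genes), ITGAM (1.95), which codes for CD11b. Against WT, 2 were (1.89%), ITGAM (1.61) and CSF3R (1.19). These are the comparisons in which CXCR2 was higher. Of 7 promyelocyte markers, ATRA lowered 2 in untreated cells, ELANE (-0.75) and CTSG (-1.38), both granule proteases. With GSK343 it lowered 3, ELANE (-0.84), CTSG (-1.15) and MYB (-1.01). It lowered 1, CTSG, with HKMTI-1-005 (-1.44) and in shEZH2#2 cells (-1.41), and 0 in WT, Scr and shEZH2#1 cells. The shares of all genes called are those given above for the same backgrounds. With ATRA, 3 of the 7 promyelocyte markers were higher in the mean of both hairpins than in WT cells, ELANE (0.85), AZU1 (1.35) and PRTN3 (1.47). For that mean, 0 were called against Scr, but the hairpins differed. ELANE (1.84), PRTN3 (1.48) and CTSG (1.59) were higher with shEZH2#1 than with shEZH2#2, in a contrast chosen after the values were seen. shEZH2#2 alone was lower than Scr in ELANE (-1.30, adjusted p = 0.000695, limma) and PRTN3 (-0.95, adjusted p = 0.0468). ELANE, AZU1 and PRTN3 were higher in Scr than in WT cells with ATRA, at 1.23, 1.09 and 1.68. Of these, AZU1 was not called without the 6 arrays of high median (adjusted p = 0.0773). Of 9 monocyte and macrophage markers, CD68 (1.23) was called higher in knockdown than in Scr cells with ATRA, and without the filter CX3CR1 (1.07). The part of these shifts in the receptor levels was not tested.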

How the data were processed

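Affymetrix Human Gene 1.0 ST arrays measured the RNA of HL-60 cells, 42 in all and 3 in each of 14 groups. The deposited log2 values were used unaltered. The authors normalized by GC-RMA in Partek and then removed effects of batch and date, with versions and batches not given in the sources used here. That they are log2 was taken from their range (3.18 to 14.5, median 5.40). No batch term could be fitted, and 3 arrays a group set the precision.

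Of 33297 probe sets, 19460 carried 1 symbol, 1754 several and 12083 none in the table of names; the brightest probe set stood for each of 18417 genes. Group means of all arrays were fitted in 1 limma model (version 3.58.1 in R 4.3.3) with 3.37 prior and 28 residual degrees of freedom and Benjamini-Hochberg adjustment over all genes. There were 17 comparisons of groups and 4 interaction terms, and 3 contrasts added after seeing the data. The receptors, the other lists and the rule for named genes (every receptor, and of each other list all called genes where 5 or fewer were called and otherwise the 4 with the largest change) were chosen with earlier results of these data known. Not every gene that the rule selects is named in the text, so that a gene left out may have been called. Alternatives set a replicate block, a separate fit for each experiment or the array median as a covariate. Others changed the scaling, the filter, the fold, the probe sets, the variance model, the hairpin and the test (a t-test), or left out arrays. No pair of arrays was identical. Same-numbered arrays did not deviate together over either experiment (mean correlation 0.0333 and -0.0142). The procedure was tested on simulated data.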

Additional observations from a re-analysis of the deposited data

Results flagged for a closer look

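C5AR1 lay above its controls on every array with ATRA in untreated cells and below them on every array with ATRA in shEZH2#1 cells. The difference between these ATRA changes was 1.20 on the log2 scale (standard error 0.37, unadjusted p = 0.003, adjusted p = 0.216 in limma), in a contrast chosen after the values were seen that sets the inhibitor experiment against the knockdown experiment, and it was not called. In the controls of the knockdown experiment the C5AR1 change with ATRA was -0.0021 in WT and -0.02 in Scr cells. In this contrast 0 of 9 receptors were called, beside 0.25% of all genes.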

How the results depend on the processing

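Of 509 counts of called receptors recomputed under other settings, 461 stayed within 1.5 times the value given and 48 moved. Counts that were 0 and stayed 0 are among the 461. Of the recomputed changes of single receptors called with or without the filter, 265 stayed called and 52 lost their call. No single change reversed its direction. Without the expression filter the counts were 2 for ATRA in untreated and in Scr cells, and 1 for knockdown against Scr and against WT with ATRA, all through CXCR2. The same counts came with quantile normalization added, and with the array median as a covariate added, except 3 in untreated cells; that covariate also gave 2 with GSK343, with HKMTI-1-005 and in WT cells. With the filter off and without the 6 arrays of high median, the counts were 2 in WT, 0 in Scr and 1 for knockdown against Scr with ATRA. With the filter on, those 6 arrays left out gave 0 in Scr cells. A replicate block gave 2 for ATRA in untreated cells and the array median as a covariate also 2, both by adding CXCR4; the block moved no other count. The replicate numbers are not stated to mark shared cultures. Every same-numbered pair correlated above 0.1 for ATRA in shEZH2#2 cells and for GSK343 and HKMTI-1-005 without ATRA, where the block moved no count. Centring gave 0 in WT cells and shifted the median of all genes by up to 0.158; 1 fit per experiment gave 1 in shEZH2#2 cells. shEZH2#1 alone gave 1 for knockdown against Scr without ATRA. The t-test gave 2 in WT cells and 1 for knockdown with ATRA against Scr and against WT (CCR1) before adjustment. After Benjamini-Hochberg adjustment it gave 0 in all 7 ATRA comparisons. Leaving out 1 array, the counts ran from 0 to 1 for ATRA in WT and in Scr cells, for knockdown against Scr without ATRA (C3AR1, without shEZH2#2 replicate 2 or Scr replicate 3) and for its interaction with ATRA, and from 1 to 2 for ATRA in untreated, GSK343 and shEZH2#2 cells. The causes were not tested.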
